A study of Mus musculus with 26 samples.

Results

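The 8 genes described here are germ line and meiosis genes: Dazl, Ddx4, Sohlh2, Hormad1, Sycp1, Sycp3, Stra8 and Mael. They were picked by gene name, with earlier results of these data known. The shares of all promoters or genes given beside their counts therefore describe the set and do not test it. All 8 of 8 were found among the 15157 promoters with a usable start site and among the 17407 genes with RNA tested. Trimethylation of lysine 4 of histone H3 (H3K4me3) and of lysine 27 (H3K27me3) was measured at their promoters, and RNA was measured on separate expression arrays.

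These genes belong to the program that germ cells run before and during meiosis. Dazl is an RNA-binding protein and Ddx4 an RNA helicase of the germ granule, and Mael acts in the piRNA pathway, which silences transposons in germ cells. Stra8 is induced by retinoic acid and is needed to enter meiosis, and Sohlh2 is a transcription factor of spermatogonia and oocytes. Hormad1 and Sycp3 are proteins of the meiotic chromosome axis, and Sycp1 forms the filaments that join paired axes. In somatic cells such genes are silent, and DNA methylation and repressor complexes that bind E2F and E-box motifs are known to hold them down. H3K4me3 marks active and poised promoters, H3K27me3 is laid down by Polycomb proteins, and promoters of pluripotent cells can carry both.

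The study compared mouse embryonic stem (ES) cells, mouse embryonic fibroblasts (MEFs) and induced pluripotent stem (iPS) cells, to ask how closely iPS cells match ES cells in these marks and in expression. Each mark was measured in the ES lines E14 and V6.5, in the fibroblast lines MEF1 and MEF2 and in 1 iPS line, on 20 arrays in all, since every line and mark took 2 arrays with different promoters. RNA was measured on 6 arrays, 2 each of V6.5 ES cells that depend on feeder cells, female MEFs and iPS cells. The labels give no treatment, genotype or age, do not say how the iPS cells were made, and do not say whether duplicate arrays came from separate cultures, so p-values for RNA measure only the spread between these arrays. The iPS cells are a single line for the marks, which the fit assumed to vary like the other lines.

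The promoters themselves are shown first because the motifs below are read on them. The marks were averaged over a wider stretch, within 1000 bp on either side of a start placed from the array's own probe labels, which can differ from the RefSeq start. The lines give the 250 bases before the RefSeq start site in 6 of the 8 genes, 5′ to 3′ on the gene's strand (build GRCm38.p6), all in lower case except 2 motifs. Capitals mark the E-box CACGTG and the E2F-type motif GCGGGA, whose reverse strand reads TCCCGC; both strands were searched. Hormad1, Sycp3, Ddx4 and Mael are shown because they hold both motifs, and Stra8 and Dazl because they hold neither. The windows are chr3:95559427-95559676 on the + strand for Hormad1, chr10:88459337-88459586 (+) for Sycp3, chr13:112652311-112652560 (-) for Ddx4, chr1:166238745-166238994 (-) for Mael, chr6:34920698-34920947 (+) for Stra8 and chr17:50293621-50293870 (-) for Dazl.
Hormad1: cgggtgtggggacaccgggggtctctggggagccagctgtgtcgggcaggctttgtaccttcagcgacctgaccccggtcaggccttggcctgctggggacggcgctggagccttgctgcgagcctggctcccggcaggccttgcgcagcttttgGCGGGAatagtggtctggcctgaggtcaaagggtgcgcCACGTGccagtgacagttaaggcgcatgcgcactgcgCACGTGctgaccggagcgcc
Sycp3: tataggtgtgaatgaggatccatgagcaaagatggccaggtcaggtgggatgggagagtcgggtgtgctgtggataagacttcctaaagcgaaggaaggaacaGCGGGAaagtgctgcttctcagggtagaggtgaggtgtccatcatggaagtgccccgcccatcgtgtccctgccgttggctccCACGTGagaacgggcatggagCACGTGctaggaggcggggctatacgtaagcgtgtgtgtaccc
Ddx4: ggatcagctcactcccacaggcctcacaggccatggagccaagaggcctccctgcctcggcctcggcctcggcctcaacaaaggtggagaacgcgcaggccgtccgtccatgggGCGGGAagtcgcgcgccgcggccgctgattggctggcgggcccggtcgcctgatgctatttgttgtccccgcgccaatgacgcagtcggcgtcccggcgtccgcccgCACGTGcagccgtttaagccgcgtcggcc
Mael: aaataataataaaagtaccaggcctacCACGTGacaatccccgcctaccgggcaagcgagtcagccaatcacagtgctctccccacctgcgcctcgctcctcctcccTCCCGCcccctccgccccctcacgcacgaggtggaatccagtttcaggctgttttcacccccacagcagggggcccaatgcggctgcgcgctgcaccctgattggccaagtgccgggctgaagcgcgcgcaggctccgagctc
Stra8: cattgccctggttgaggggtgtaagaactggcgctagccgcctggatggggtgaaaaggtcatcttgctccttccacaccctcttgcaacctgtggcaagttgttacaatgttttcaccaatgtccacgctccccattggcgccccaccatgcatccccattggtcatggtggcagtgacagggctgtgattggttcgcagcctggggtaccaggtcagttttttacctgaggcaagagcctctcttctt
Dazl: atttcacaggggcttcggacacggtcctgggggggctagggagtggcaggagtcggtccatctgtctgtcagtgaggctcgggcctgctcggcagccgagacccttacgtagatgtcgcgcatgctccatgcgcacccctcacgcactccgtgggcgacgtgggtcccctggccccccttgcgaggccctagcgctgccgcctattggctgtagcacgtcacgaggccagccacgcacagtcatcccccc

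An E-box was found in 5 of the 8 windows (the 4 above with both motifs, and Sycp1), against 6.05% of 27025 RefSeq promoters of the same length. The E2F-type motif was found in 4 of 8, against 16.9%, and both motifs in 4 of 8, against 1.47%. The copies do not overlap each other. Hormad1 and Sycp3 held 2 E-boxes each, at -57 to -52 and -20 to -15 from the start in Hormad1 and at -64 to -59 and -43 to -38 in Sycp3. The single E-box lay at -29 to -24 in Ddx4, at -94 to -89 in Sycp1 and at -223 to -218 in Mael. The windows held between 5 CpG dinucleotides in Stra8 and 31 in Ddx4, with a median of 17.5 against 6 over all promoters, so the group is richer in CpG than a typical promoter, and both motifs contain a CpG. A match is only a run of letters, and Sohlh2, Stra8 and Dazl hold neither run in this window.

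Array quality touches the results below in 2 ways. In the H3K27me3 set the E14 arrays had a narrower spread of log2 ratios (median absolute deviation 0.289 to 0.291) than the other lines (0.417 to 0.712). Among the expression arrays the MEF duplicate stood apart: 86.7% of its spots were well above background and its median signal was 306.6, against 46.4% on the first MEF array and a median signal of 34.9 to 86.2 on the other 5 arrays. The 2 MEF arrays correlated at 0.87 over all genes, against 0.97 for the ES and 0.99 for the iPS pair. Cell identity followed the labels: the 6 pluripotency markers summed to log2 levels of 8.05 and 8.44 on the ES arrays, 7.87 and 7.82 on the iPS arrays and -0.68 and 0.26 on the MEF arrays, where Nanog, Sox2 and Esrrb were not well above background on either. Of these 6 markers, Dppa5a was well above background on both MEF arrays, and Pou5f1 and Zfp42 were on the MEF duplicate. All 9 fibroblast markers were well above background on both MEF arrays, and 8 of 9 were on both ES arrays and the first iPS array. The fibroblast markers summed to 9.84 and 8.85 in MEF against 5.89 and 6.22 on the ES and 4.30 and 4.11 on the iPS arrays. The 7 macrophage markers summed to 6.79 and 6.03 in MEFs against 1.52 to 1.97 on the ES and iPS arrays, and their part in the RNA results was not tested. Most of the MEF sum was Lyz2 (6.62 and 5.77). Cd68 differed little (0.24 and -0.24 in MEF, 0.39 and 0.16 in ES), and Laptm5 was lower in MEF (-1.36 and -0.89) than in ES (0.22 and 0.83). Of 6 further germ cell markers, summed levels were 3.53 and 3.85 in ES, 0.97 and 1.96 in MEF and 3.73 and 3.55 in iPS. Dppa3 alone stood at 3.39 and 3.61 in ES and 3.51 and 3.34 in iPS, while the sperm protamine Prm1 was higher in MEF (0.60 and 1.1) than in ES (-1.55 and 0.33). Those of 7 gonad somatic markers were -0.07 and 0.71, 0.61 and 1.89, and 0.05 and -0.07, with 7 of 7 well above background on the MEF duplicate and 3 of 7 on the first MEF array.

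H3K4me3 at the germ line promoters was low in ES cells and lower still in MEFs. All 8 members lay higher in both ES lines than in both MEF lines, as did 25.6% of all promoters. Over the members the median difference was -0.83 on the log2 scale, against -0.04 over all promoters. In the limma fit 4 of 8 fell in MEFs at an adjusted p under 0.05 (Hormad1, Sohlh2, Stra8 and Sycp3), where 3.13% of all promoters fell. The values below are promoter means of log2 immunoprecipitate over input within 1000 bp of the start, on a scale where 0 is the median probe of the array.

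Hormad1 showed the widest H3K4me3 difference of the 8. Its promoter stood at 1.02 in E14 and 0.94 in V6.5, at -0.92 in MEF1 and -0.63 in MEF2, and at 1.08 in the iPS line. The medians over all promoters were 0.93 to 1.16 in the 5 lines. E14 and the iPS line lay above theirs, while MEF1 lay at the 0.488th percentile of promoters and MEF2 at the 15.9th. The MEF minus ES difference was -1.75 (SE 0.22, limma adjusted p = 0.00173), a 3.37-fold drop.

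Sohlh2 stood at 0.73 and 0.76 in the ES lines, at -0.45 and -0.57 in the MEF lines and at 0.90 in the iPS line. The groups do not overlap, and the difference was -1.26 (SE 0.21, limma adjusted p = 0.00731). Stra8 stood at 0.55 and 0.63 in ES, -0.55 and -0.61 in MEF and 0.32 in iPS, a difference of -1.17 (SE 0.21, limma adjusted p = 0.0105). Sycp3 stood at 0.68 and 0.65 in ES, -0.15 and -0.23 in MEF and 0.46 in iPS, a difference of -0.86 (SE 0.21, limma adjusted p = 0.0426). In all 3 the iPS line lay above both MEF lines. The call for Sycp3 was lost when any single ES or MEF line was left out, with adjusted p from 0.0876 to 0.33, that for Stra8 without MEF1 or without MEF2 (0.0589 and 0.101), and that for Sohlh2 without MEF2 (0.0826). Hormad1 kept its call without any single line.

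The 4 other members differed in the same direction without passing. Mael stood at 0.79 in E14 but 0.50 in V6.5, against -0.06 and -0.25 in the MEF lines and 0.50 in iPS (limma adjusted p = 0.0736). Sycp1 stood at 0.28 and 0.33 in ES, -0.27 and -0.35 in MEF and 0.21 in iPS (limma adjusted p = 0.148). Ddx4 stood at 0.18 and 0.32, -0.12 and -0.30, and 0.21 (limma adjusted p = 0.34). The array labels the probes upstream of Ddx4 and of Stra8 with a second gene as well. Dazl had the smallest difference of the 8 promoter means. Its values were 0.37 and 0.34 in ES, 0.02 and 0.32 in MEF and 0.33 in iPS, and the difference of -0.19 (95% interval -0.67 to 0.30) did not pass (limma adjusted p = 0.889). The MEF2 mean holds 1 probe, at -722 bp, that read 2.53 there, against -0.26 in MEF1 and 0.21 and -0.43 in the ES lines. Without it the other 7 probes gave 0.39 and 0.45 in ES, 0.06 and 0.01 in MEF and 0.32 in iPS, a difference of -0.39, chosen after seeing the data. Within the window 6 of 8 Dazl probes were higher in both ES lines than in both MEF lines. Just outside it the order was the reverse and the signal stronger. The probe at 1008 bp read 1.53 and 1.47 in ES against 2.22 and 2.31 in MEF. The probe at 1214 bp read 2.48 and 2.03 against 2.70 and 2.63.

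By the count of promoters with a gap of at least 1 log2 unit between both ES lines and both MEF lines, 3 members qualified (Hormad1, Sohlh2 and Stra8), with gaps of 1.57, 1.18 and 1.09, against 1.27% of all promoters. At a promoter mean of 1 or more, which 47% to 54.9% of promoters reached for H3K4me3, only Hormad1 counted as marked, in E14 and in iPS. None of the 8 reached it in V6.5 or in either MEF line.

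**Figure D1:**
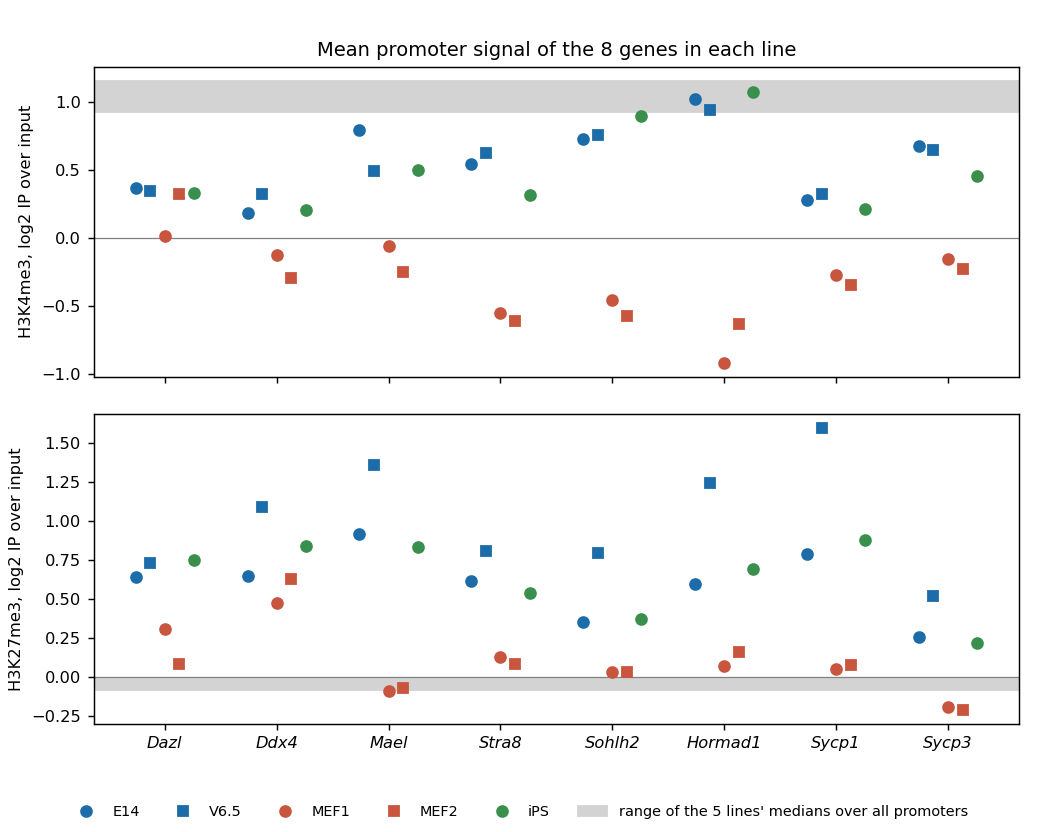
Mean promoter log2 ratio of immunoprecipitate over input (y axis) for each of the 8 genes (x axis) in the 5 lines, H3K4me3 above and H3K27me3 below; each point is 1 line and the grey band is the range of the 5 lines' medians over all promoters. The red MEF points lie below the blue ES points at all 8 promoters for both marks, and the green iPS points lie above them.

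H3K27me3 at the same promoters was lower in MEFs as well. All 8 members lay higher in both ES lines than in both MEF lines, as did 35.1% of all promoters, and the median difference over the members was -0.60 against -0.04 over all promoters. In the fit, Mael and Stra8 fell in MEFs, 2 of 8 members where 7.71% of all promoters fell. In ES cells the members were among the more strongly marked promoters, between the 72.5th and the 96.1st percentile in E14 and the 76.5th and the 96.2nd in V6.5.

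Mael stood at 0.92 in E14 and 1.36 in V6.5, at -0.09 in MEF1 and -0.07 in MEF2, and at 0.84 in the iPS line. The MEF values are close to each other and at the centre of their arrays, and the difference was -1.21 (SE 0.18, limma adjusted p = 0.0256). Stra8 stood at 0.62 and 0.81 in ES, 0.13 and 0.09 in MEF and 0.54 in iPS, a difference of -0.60 (SE 0.13, limma adjusted p = 0.0443). Both calls were lost without V6.5, without MEF1 or without MEF2, settings in which the fit called no promoter at all, while without E14 the calls became 6 of 8. That for Stra8 was also lost with a window of 2000 bp (-0.40, adjusted p 0.085) and with the highest probe (adjusted p 0.0825). Both were lost with a window of 500 bp and with normexp background correction, where the differences were -0.53 for Mael and -0.10 for Stra8.

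Sycp1 had the highest single value of the 8, 1.6 in V6.5, against 0.79 in E14, 0.05 and 0.08 in MEF and 0.88 in iPS, and it did not pass (difference -1.13, limma adjusted p = 0.0591). The V6.5 line lay above E14 at all 8 promoters, so the ES spread is wide. The E14 arrays had the narrower spread of ratios given above. As a percentile of all promoters in its line, E14 was the higher at Dazl, Ddx4, Stra8 and Mael, and V6.5 at the others. Sycp3 stood at 0.26 and 0.52 in ES, -0.19 and -0.21 in MEF and 0.22 in iPS (limma adjusted p = 0.0539). Hormad1 stood at 0.60 and 1.24 in ES, 0.07 and 0.16 in MEF and 0.70 in iPS (limma adjusted p = 0.0848). For Sohlh2 the values were 0.36 and 0.79 in ES, 0.03 in each MEF line and 0.38 in iPS (limma adjusted p = 0.11).

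Dazl stood at 0.64 and 0.73 in ES, 0.31 and 0.09 in MEF and 0.75 in iPS (limma adjusted p = 0.0753). Ddx4 kept the most H3K27me3 in MEFs, 0.48 in MEF1 and 0.63 in MEF2 (the 80.8th and 81.1st percentile), against 0.65 and 1.09 in ES and 0.84 in iPS, so E14 and MEF2 nearly meet (limma adjusted p = 0.32). The bar of at least 1 log2 unit between the groups was reached by none of the 8, against 1.21% of promoters. At a promoter mean of 1 or more, 4 members counted as marked in V6.5 (Ddx4, Hormad1, Mael and Sycp1), where 12.7% of promoters did, and none in E14 (2.67%), MEF1 (6.69%), MEF2 (11.1%) or iPS (8.79%).

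Put together, all 8 members lay higher in both ES lines than in both MEF lines for both marks at once, which held for 5.69% of all promoters. The iPS line lay above both MEF lines for both marks at all 8, against 13.5% of promoters. The margins are thin for Dazl in H3K4me3 (0.02 between the lower ES and the higher MEF line) and for Ddx4 in H3K27me3 (0.02). At Dazl the H3K4me3 of the iPS line lay only 0.01 above the higher MEF line. With normexp background correction the first count was 5 of 8, against 6.24% of promoters, and the second 6 of 8, against 10.7%. With a 500 bp window they were 6 (4.9%) and 6 (11.6%), and with a 2000 bp window 7 (5.87%) and 8 (12.8%). With the highest probe they were 7 (3.42%) and 7 (13%). Stra8 alone passed the test for both marks, 1 of 8 members against 0.191% of promoters. With dividing each line by its own spread, 6 members fell in H3K4me3 and all 8 in H3K27me3, but then 13.8% and 32.5% of all promoters were called in either direction.

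**Figure D2:**
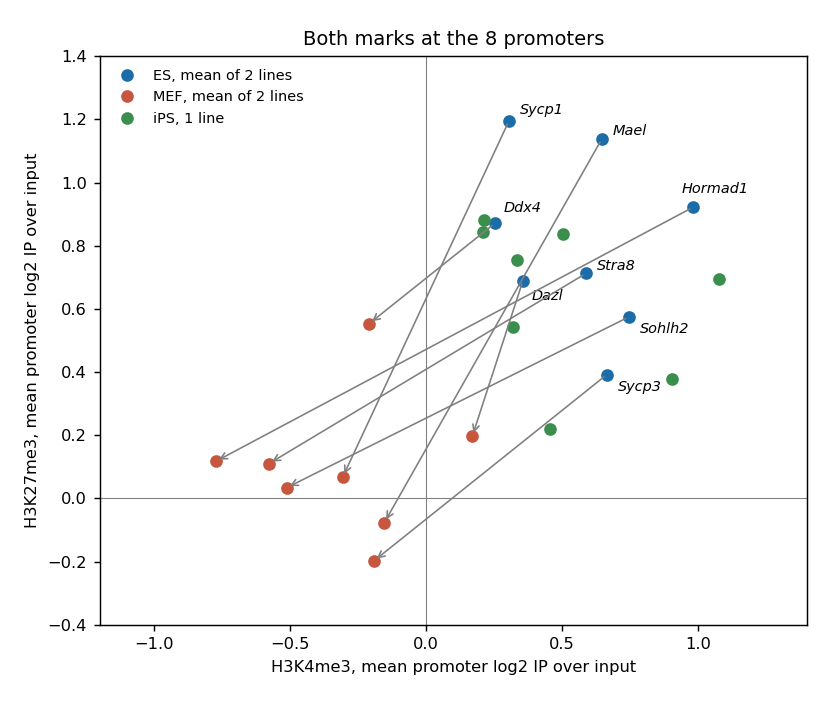
Mean promoter log2 ratio for H3K4me3 (x axis) against H3K27me3 (y axis) for the 8 genes; blue points are means of 2 ES lines, red points means of 2 MEF lines, green points the 1 iPS line, and arrows run from ES to MEF. All 8 arrows point down and to the left, and the arrow is shortest for Ddx4 and Dazl.

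The probes show where along the promoter these means come from. Of the 76 member probes within 1000 bp of a start, 59 were higher in both ES lines than in both MEF lines for H3K4me3 and 48 for H3K27me3. The same share was not counted over all probes, and of whole promoters 25.6% and 35.1% showed this order. Probes of 1 promoter are not independent, so these counts only locate the signal. A ratio of at least 1 in both ES lines was read by 15 probes for H3K4me3 and 21 for H3K27me3. In both MEF lines it was read by 0 and 2. At Stra8 all 11 probes were higher in ES for each mark, and at Sohlh2 all 10 were for H3K4me3.

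The highest H3K4me3 probe in ES lay at 75 bp in Stra8 and between 366 and 916 bp from the start in the other 7 genes. At Hormad1 the probe centred 366 bp inside the gene read 2.48 in E14, 2.09 in V6.5 and 2.46 in iPS, against -1.25 and -1.10 in the MEF lines, and the probe at 86 bp read 2.51, 1.94 and 2.39 against -1.59 and -0.44. At Sohlh2 the probe at 916 bp read 2.67, 1.66 and 3.0 in E14, V6.5 and iPS, and -1.02 in each MEF line. At Mael the probe at 670 bp read 2.51 and 2.40 in the ES lines for H3K4me3 and 2.04 and 2.16 for H3K27me3, so the same stretch gave both marks in ES chromatin, while MEF1 read 0.87 and -0.50. At Sycp1 the probe at 860 bp likewise read 2.32 and 1.59 for H3K4me3 and 1.86 and 2.87 for H3K27me3 in ES, with all 4 MEF values between -0.80 and 0.03. These are values of cell populations, which do not show that both marks sat on the same chromosomes. Probes named as the highest in ES were picked for their ES values, which widens their gap to MEFs. With the highest probe of each line taken instead, no promoter passed for H3K4me3 (0%). Hormad1 then differed by -2.33 (limma adjusted p = 0.097).

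Upstream of the promoter window the marks differed. Between -3000 and -1000 bp from the start the median over members was 0.75 in E14, 1.12 in V6.5 and 0.62 in iPS for H3K27me3, against 0.11 and 0.14 in the MEF lines. H3K4me3 there was below 0 in every line, between -0.60 and -0.15. At Ddx4 the highest H3K27me3 probe lay at -904 bp and read 2.03 and 2.81 in ES and 2.51 in iPS, and still 1.11 and 1.25 in the MEF lines.

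**Figure D3:**
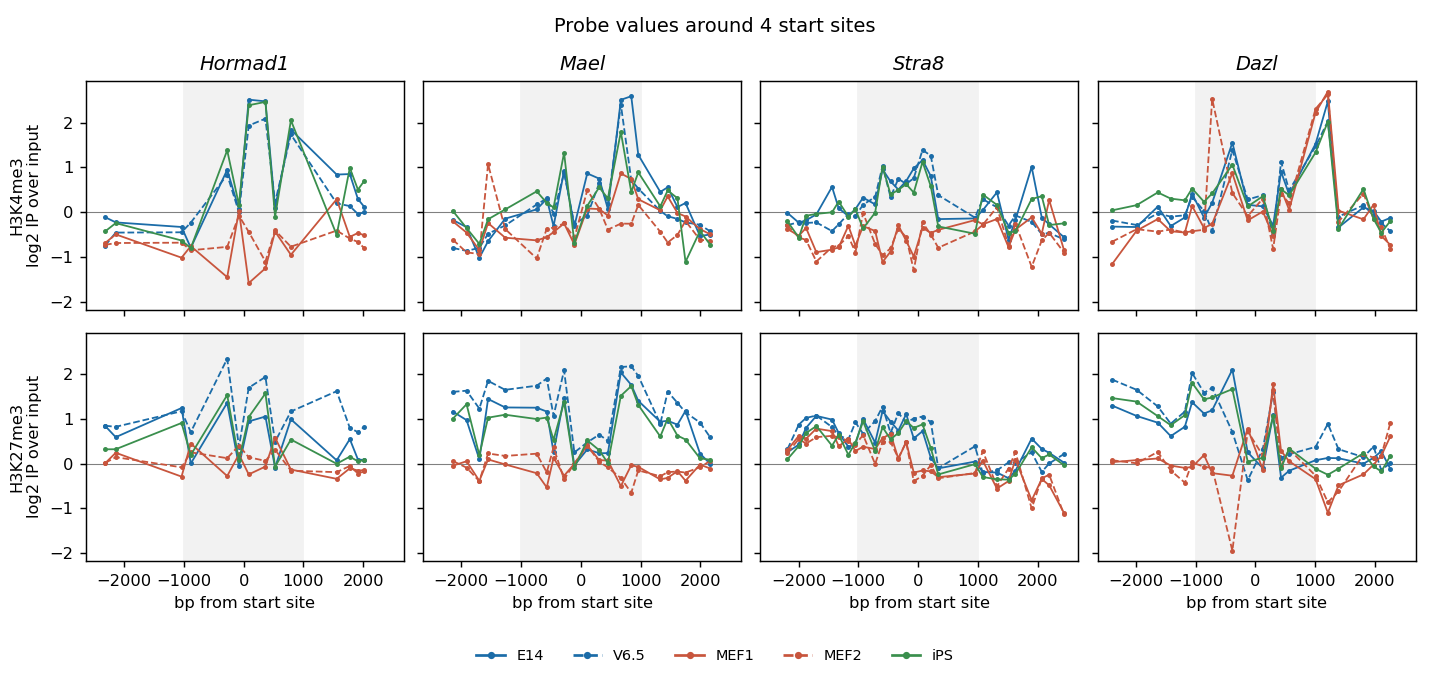
Log2 ratio of single probes (y axis) by distance from the start site in bp (x axis, negative before the start) for Hormad1, Mael, Stra8 and Dazl, H3K4me3 above and H3K27me3 below, 1 line per cell line; grey marks the 1000 bp on either side that entered the promoter mean. The blue and green lines run above the red ones across most of the window at Hormad1, Mael and Stra8, while at Dazl the H3K4me3 lines lie close together.

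The iPS line lay above both MEF lines at all 8 promoters. For H3K4me3, Hormad1 and Sohlh2 rose in iPS against MEF (1.85, SE 0.26, limma adjusted p = 0.0169, and 1.42, SE 0.25, limma adjusted p = 0.0366), 2 of 8 members where 0.548% of all promoters rose. Neither call held without MEF1, and that for Sohlh2 was also lost without MEF2. Arrays of the iPS line and MEF2 for Hormad1, Sohlh2, Sycp1, Mael and Stra8 were scanned on the same day, and within that day the iPS line was higher by 1.71, 1.48, 0.56, 0.75 and 0.93. No ES and MEF line of a mark shared a scan day, so for ES against MEF the day and the cells cannot be told apart.

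For H3K27me3 no promoter passed in iPS against MEF (0%), by limma at an adjusted p under 0.05, although 3056 had an unadjusted p under 0.05, among them 3 members. The member differences ran from 0.29 in Ddx4 to 0.92 in Mael. Between iPS and ES no promoter passed for either mark (0% each), with 225 promoters for H3K4me3 and 300 for H3K27me3 at an unadjusted p under 0.05 in limma, none of them a member. The widest member differences were -0.27 for H3K4me3 at Stra8 (95% interval -0.83 to 0.30) and -0.31 for H3K27me3 at Sycp1 (-1.17 to 0.54), so changes of about this size could be missed. On arrays of a shared day, iPS minus E14 was -0.03, 0.03 and -0.22 for H3K4me3 at Dazl, Ddx4 and Sycp3. For H3K27me3 it lay between -0.08 and 0.10 at the 5 members on the array shared with E14, and at -0.30 to 0.02 against V6.5 at the other 3.

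RNA of these genes was found in ES and iPS cells, and was low on the first MEF array. Levels below are log2 signals relative to the array's 75th percentile, which is 0. All 8 members were well above background on both ES arrays and on the first iPS array. On the first MEF array 7 of 8 were not well above background (all but Ddx4), yet on the MEF duplicate all 8 were. In bulk RNA, fewer expressing cells and less RNA per cell cannot be told apart. In MEFs against ES, 3 of 8 members fell (Dazl, Ddx4 and Stra8), where 17.4% of all genes fell, with a median difference of -3.51 over the members and -0.11 over all genes.

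Values below background on the first MEF array are no measured levels, so differences that rest on them are background-limited. They are given as measured and, in an alternative chosen after seeing the data, with each array raised to its lowest level well above background, which is -3.31 on that array. Stra8 is the gene of meiotic entry. Its level was 1.94 and 2.52 in ES, -5.54 and -2.11 in MEF and 1.75 and 1.59 in iPS. The MEF values lie far apart but well below the rest, and the difference was -6.05 (SE 1.02, limma adjusted p = 0.00589), or -4.94 at the floor, 30.7-fold. Ddx4 was the one member measured on both MEF arrays: 1.26 and 1.07 in ES, -2.13 and -3.10 in MEF and 0.78 and 0.81 in iPS. Its difference was -3.78 (SE 0.47, limma adjusted p = 0.00194), 13.7-fold.

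Dazl was read by a pair of probes. The brighter, which entered the test, stood at 0.00 and -0.34 in ES, -5.41 and -3.01 in MEF and 0.49 and 0.40 in iPS (difference -4.04, SE 0.76, limma adjusted p = 0.00884, or -2.99 at the floor). The dimmer stood at -3.33 and -3.65 in ES and -1.46 and -1.32 in iPS, and was not well above background on either MEF array (measured mean -5.74). With the MEF level set at the lowest signal well above background, this probe was at least 1.15-fold higher in ES and at least 4.92-fold higher in iPS. The calls for Dazl and Stra8 were lost without either ES array, with adjusted p from 0.057 to 0.0814.

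Mael stood at 0.86 and 0.79 in ES, -5.48 and -0.70 in MEF and 2.81 and 2.67 in iPS. Its MEF minus ES difference of -3.92 (SE 1.36) did not pass (limma adjusted p = 0.0677), with an SD of 3.38 between the MEF arrays. Sycp3 stood at -0.13 and 0.71 in ES, -5.05 and -0.83 in MEF and 0.96 and 0.65 in iPS (difference -3.23, limma adjusted p = 0.0891). At the floor both passed, at -2.83 for Mael and -2.37 for Sycp3 (limma adjusted p = 0.00812 and 0.0205), with 42.4% of all genes called in either direction. For both, the ES values lay above both MEF values.

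In the other 3 genes the MEF duplicate overlapped or exceeded the ES arrays. Sycp1 stood at -1.04 and 0.25 in ES, -5.13 and -0.13 in MEF and 0.09 and -0.05 in iPS. Hormad1 stood at -1.10 and -1.14 in ES, -5.12 and -0.66 in MEF and 0.55 and 0.77 in iPS, and its dimmer probe also read higher on the MEF duplicate (-1.18) than on the ES arrays (-3.02 and -3.64). Sohlh2 stood at -0.90 and -1.17 in ES, -2.77 and -0.18 in MEF and 1.89 and 2.00 in iPS. Their differences did not pass (limma adjusted p = 0.28, 0.324 and 0.702). Over the members, both ES arrays lay above both MEF arrays in 5 of 8 members, against 34.2% of genes.

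These counts moved with the MEF duplicate. Without it, when the lone MEF array is assumed to vary like the other groups and 7 of its 8 values are below background, all 8 members fell in MEFs and all 8 rose in iPS, but then 47.9% and 50.9% of all genes were called in either direction, and without the first MEF array 4 fell and 7 rose, with 56.5% and 56.7%. The first arrays lay on 1 slide and the duplicates on another. Within the first slide MEF minus ES, with levels raised to the floor, ran from -5.25 in Stra8 to -1.87 in Sohlh2, whose MEF value lies above the floor without being well above background. Within the second slide it ran from -4.63 in Stra8 to 0.98 in Sohlh2, and was also above 0 in Hormad1 (0.48). With the slide as a block 5 members fell, Mael and Sycp3 being added (limma adjusted p = 0.0157 and 0.0215), with 31.9% of all genes called in either direction.

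**Figure D4:**
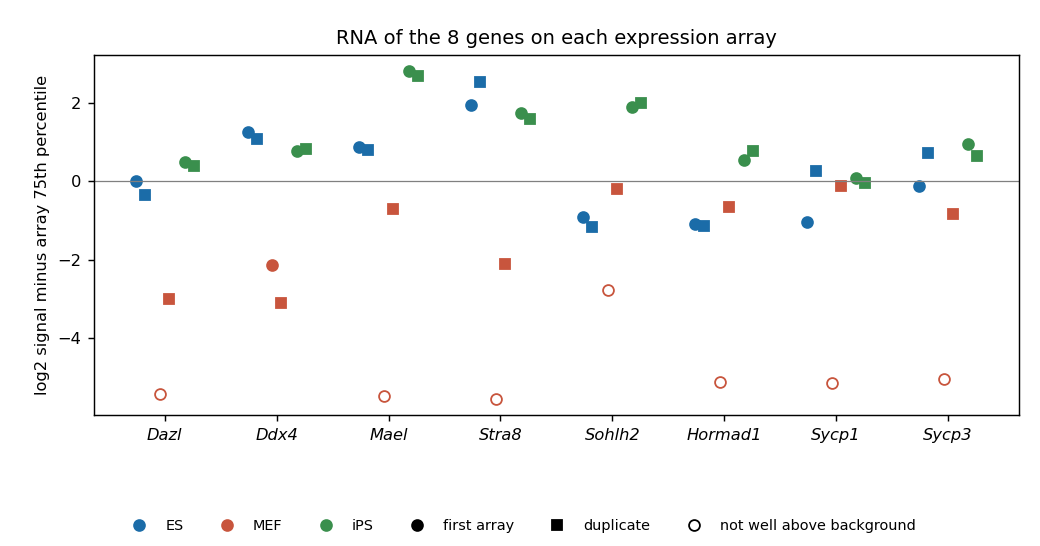
Log2 signal minus the array's 75th percentile (y axis) for the 8 genes (x axis) on the 6 expression arrays; circles are first arrays, squares are duplicates, and open symbols are probes not well above background. The red squares of the MEF duplicate lie well above the open red circles of the first MEF array in 7 genes, all except Ddx4, and at or above the ES points in Sohlh2, Hormad1 and, for the lower ES array, Sycp1.

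In iPS cells against MEFs 5 of 8 members rose (Dazl, Ddx4, Sohlh2, Stra8 and Mael), where 17.8% of all genes rose. Both iPS arrays lay above both MEF arrays in all 8, against 38.4% of genes. The differences as measured, background-limited in all but Ddx4, were 5.83 for Mael (SE 1.36, limma adjusted p = 0.0177), 5.50 for Stra8 (SE 1.02, limma adjusted p = 0.00774), 4.65 for Dazl (SE 0.76, limma adjusted p = 0.00482), 3.42 for Sohlh2 (SE 0.81, limma adjusted p = 0.0183) and 3.41 for Ddx4 (SE 0.47, limma adjusted p = 0.00244). Sycp3, Hormad1 and Sycp1 differed by 3.74, 3.55 and 2.65 and did not pass (limma adjusted p = 0.0567, 0.0725 and 0.205). At the floor the differences were 4.75 for Mael, 4.39 for Stra8 and 3.61 for Dazl, and those of Sohlh2 and Ddx4 stayed. Sycp3 and Hormad1 rose too at the floor (limma adjusted p = 0.00703 and 0.0111), with 43.5% of all genes called in either direction. With the slide as a block Sycp3 and Hormad1 also rose (limma adjusted p = 0.0101 and 0.0164), with 33% of all genes called. On the second slide alone Sycp1 differed by only 0.08. The calls for Sohlh2 and Mael were lost without either ES array (adjusted p 0.0564 and 0.0594).

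Between iPS and ES cells none of the 8 passed, and 0.207% of all genes did in either direction by limma at an adjusted p under 0.05, with 2714 genes at an unadjusted p under 0.05, 1 of them a member. That member was Sohlh2, higher in iPS by 2.98 (SE 0.81, 95% interval 1.05 to 4.90, limma adjusted p = 0.173). It passed with levels raised to the floor (limma adjusted p = 0.0446), where 3.14% of all genes did in either direction. Both iPS arrays of Sohlh2 lay above both ES arrays, by 2.79 within the first slide and 3.17 within the second. Mael and Hormad1 were higher in iPS by 1.91 and 1.78 (limma adjusted p = 0.547 and 0.551), again on both slides. When the MEF arrays were left out of the fit, Sohlh2, Hormad1 and Mael rose (limma adjusted p = 0.00656, 0.0148 and 0.0131), with 15.7% of all genes called in either direction. The other 5 differed by -0.56 in Stra8 to 0.61 in Dazl, each with an interval wider than 2 log2 units.

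RNA and marks did not order the genes alike. Dazl fell in RNA and did not pass in either mark, and Hormad1 fell most in H3K4me3 while its RNA did not pass. Stra8 was the only member called lower in MEFs in RNA, in H3K4me3 and in H3K27me3 in the fits of all lines and arrays, and its calls were lost in the settings given above.

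Other germ line genes were counted on lists of 78 genes in 6 groups, beside the 17.4% of all genes that fell in RNA in MEFs, the 3.13% of promoters that fell in H3K4me3 and the 7.71% that fell in H3K27me3. RNA differences of list genes are as measured, and those resting on values below an array's floor are background-limited. On the first MEF array Dppa3 (-5.28), Lin28a (-5.49), Syce1 (-5.40), Tex19.1 (-5.12), Ccnb1ip1 (-5.43) and Dnmt3b (-3.91) lay below the floor of -3.31. In ES, Lhx8 (-6.90 and -5.58) and Msh4 (-5.45 and -5.60) lay below the floors of -4.60 and -4.04. Of genes of the chromosome axis, to which Hormad1 and Sycp3 belong, 7 of 11 fell in RNA in MEFs and none rose, led by the cohesin subunit Stag3 (-5.64, SE 0.39, limma adjusted p = 0.000741) and the synaptonemal complex protein Syce1 (-4.79, SE 0.82, limma adjusted p = 0.00604). The same 7 genes rose in iPS against MEF, a comparison that shares the MEF arrays. In H3K4me3 3 of 7 fell, with the meiotic cohesin Rec8 at -1.66 (SE 0.22, limma adjusted p = 0.00272), and the median H3K27me3 difference was -0.08.

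Of early germ cell regulators 6 of 11 fell in RNA and 1 rose, with Dppa3 at -7.42 and the RNA-binding protein Lin28a at -6.63. In H3K4me3 5 of 12 fell, with Dnd1 at -1.62, Lin28a at -1.26 and Dppa3 at -1.19. In H3K27me3 Lin28a rose by 1.09 (SE 0.14, limma adjusted p = 0.0251), opposite in sign to all 8 members. Prdm14 was not among the tested features. Of gonocyte and oocyte transcription factors, the group of Sohlh2, 2 of 7 fell (Rhox5 most, -5.76) and 1 rose (Lhx8, 5.12).

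Of meiotic recombination genes 4 of 11 fell in RNA, Ccnb1ip1 most (-6.13), and 1 rose (Msh4, 4.51). Dmc1, the recombinase of meiosis, did not pass in RNA (-1.89, limma adjusted p = 0.207). Its H3K4me3 fell by 1.36 (SE 0.23, limma adjusted p = 0.00893) and its H3K27me3 rose by 0.86 (SE 0.16, limma adjusted p = 0.0376). It thus held 1.07 and 1.55 H3K4me3 in ES with 0.11 and -0.20 H3K27me3, and 0.69 and 0.93 H3K27me3 in the MEF lines. Its H3K27me3 thus moved opposite to that of Mael and Stra8, and its H3K4me3 in the same direction as Stra8.

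Of piRNA and germ granule genes, the group of Ddx4 and Mael, 3 of 13 fell in RNA, near the share of all genes, and 2 rose, with Tex19.1 at -9.17 and the helicase Ddx25 at 3.54. Piwil2 did not pass (-2.99, limma adjusted p = 0.177). In this group 3 of 9 promoters fell in H3K4me3 (Piwil4 by 1.79) and 3 of 9 in H3K27me3 (Piwil1 by 0.96, Asz1 by 0.76), with Asz1 in both. Both marks were higher in both ES lines than in both MEF lines in 4 of 9 promoters of this group. The counts were 4 of 7 for the transcription factors, 3 of 7 for the axis, 3 of 12 for early germ cell genes, 2 of 9 for recombination and 2 of 14 for known repressors of germ line genes.

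Of those repressors, 9 of 16 fell in RNA in MEFs and none rose, Dnmt3b most (-6.63, SE 0.41, limma adjusted p = 0.000741), with Uhrf1, a partner of the maintenance DNA methyltransferase, at -4.26. E2f6, which binds the E2F-type motif, differed by 0.14 (limma adjusted p = 0.85).

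**Figure D5:**
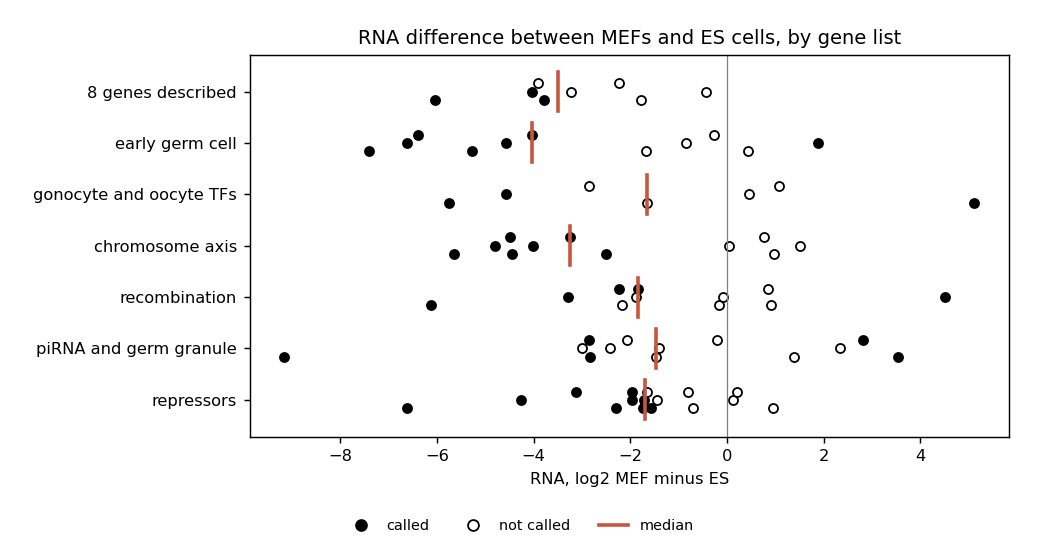
Log2 RNA difference MEF minus ES (x axis) for each tested gene of the 8 genes described and of 6 lists (y axis); filled points passed the adjusted p and 2-fold rule, open points did not, and red bars are medians. The members' median is -3.51, the chromosome axis list's -3.25 and the repressors' -1.69.

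Over the 10 promoter values, the promoters nearest to the members' median profile by Euclidean distance were Tuba3a (0.42), Rhox9 (0.44), Stk31 (0.50), Htr5a (0.50) and Cxcl3 (0.50), whereas the members themselves lay at 0.52 (Stra8) to 1.21 (Hormad1) from it. Over the 6 expression arrays, each gene taken relative to its own mean, the genes nearest to Dazl were Urah (0.40), Morc1 (0.45), Klf8 (0.47), Iqcg (0.55) and Pls1 (0.56).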

How the data were processed

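The authors labelled immunoprecipitated DNA and input DNA with Cy5 and Cy3, per the labels' protocols, and deposited scanner files with intensity per spot, already background-subtracted and, on the promoter arrays, dye-normalised by Agilent Feature Extraction (9.1.3.1 for promoter and 9.5.1.1 for expression arrays, as the headers state). In the deposited tables of values, submitted by the authors, are a log10 ratio of red over green for promoters and the processed intensity for RNA. The aligner of probes and their genome build are not given in the sources used here.

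For the MEF H3K27me3 arrays the labelling text names Cy3 for the immunoprecipitate and the label field Cy5. The label field was followed: their probes correlated with the other H3K27me3 arrays at 0.617 to 0.685. Log2 of Cy5 over Cy3 was centred on each array's median, and probes within 1000 bp of a start were averaged (at least 3 probes, and at most 1000 bp between the probes beside the start). For RNA, log2 intensity minus the array's 75th percentile was used, for each gene's brightest probe, with probes kept where a group had both of its arrays well above background (25580 of 41174; for iPS the first array alone decided). ES and MEF scanner files are exchanged relative to the deposited table on both slides (100% of spots equal), and the table was followed. The scanner file of the iPS duplicate holds 28350 of 45018 spots, matches no column and was not used.

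Tests were limma 3.58.1 (lmFit, eBayes) in R 4.3.3 over all genes (6 arrays, 3 residual degrees of freedom) or promoters (5 lines, 2), with Benjamini-Hochberg adjustment. A call needed an adjusted p under 0.05, and for RNA also 2-fold. Simulated data had 200 changed features and, for each feature, the fitted spread, shared by all groups. There the RNA fit recovered 0% of 4-fold and 97.5% of 32-fold changes. The promoter fits recovered 71% (H3K4me3) and 91% (H3K27me3) of 2-fold changes. The data held many more calls (5731 for RNA in MEF against ES) and a wider spread between the MEF expression arrays. These recovery rates therefore need not apply to the data. Precision is limited by how few arrays there are. The members and lists were chosen with earlier results of these data known. All 8 members are named, and of each list the 2 largest called differences, with Dppa3, Piwil2, Dmc1, Prdm14 and E2f6. Other genes and list members named were chosen after their values were seen. Deviations of same-numbered RNA arrays, which share a slide, correlated at -0.11 to 0.03, and the labels state no pairing. The main fit held no slide term, and the slide entered only as a block in an alternative fit. Alternatives are in the closing section. Sequences are RefSeq's, matched by symbol for 8 of 8 members.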

Additional observations from a re-analysis of the deposited data

How the results depend on the processing

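Counts are of the 8 genes. For RNA in MEF against ES (3 called lower), normexp background correction (without the iPS duplicate) gave 5, levels raised to the floor 5, the slide as a replicate block gave 5, and leaving out 1 array gave 1 to 8. For RNA in iPS against MEF (5 higher), no filter on dim probes gave 3, fitting only the groups compared 3, and leaving out 1 array 3 to 8. For RNA in iPS against ES (0), these gave 1 with normexp, 1 at the floor, 3 with only the groups compared and 0 to 3. With ES and MEF scanner files as filed the 3 counts were 3 (higher, so reversed), 0 and 5. That filing would give MEFs the pluripotency marker sums of 8.05 and 8.44, and ES cells those of -0.68 and 0.26, against the cell labels. The values were then 4.04 for Dazl, 3.78 for Ddx4 and 6.05 for Stra8 in MEF against ES, -0.37 for Ddx4 and -0.56 for Stra8 in iPS against MEF, and 3.41 and 5.50 in iPS against ES. Both ES arrays lay above the MEF level in 8 genes without the MEF duplicate (46.2% of all genes), against 5 (34.2%). The replicate block changed no sign, and added Mael and Sycp3 in the first comparison and Hormad1 and Sycp3 in the second.

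For H3K4me3 in MEF against ES (4), the highest probe gave 0 and leaving out 1 line 1 to 4. In iPS against MEF (2), a 500 bp window gave 1, the highest probe 0, scaling by each line's deviation 5 and leaving out 1 line 0 to 2. For H3K27me3 in MEF against ES (2), normexp gave 0, windows of 500 and 2000 bp gave 0 and 5, scaling 8 and leaving out 1 line 0 to 6. In iPS against MEF (0), scaling gave 6. Percentages beside the next counts are shares of all promoters, for gaps in either direction. Gaps of 1 log2 unit in H3K4me3 (3, 2.38%) became 0 with normexp (2.03%), 6 with the highest probe (5.82%) and 1 at 1.5 log2 units (0.772%). In H3K27me3 (0, 1.79%) they became 2 with the highest probe (5.72%), 2 with scaling (3.23%) and 2 at 1.5-fold (8.42%). Genes marked in both ES lines were 0 for each mark (46.4% of promoters for H3K4me3, 2.66% for H3K27me3). For H3K4me3 they became 1 with a 500 bp window (33.8%), 8 with the highest probe (70.4%) and 3 at 1.5-fold (61.7%). For H3K27me3 they became 8 with the highest probe (24.9%), 3 with scaling (9.58%) and 6 at 1.5-fold (12.1%). Both marks were higher in ES in 5 genes with normexp (6.24% of promoters), 6 with a 500 bp window (4.9%) and 7 with the highest probe (3.42%), against 8 (5.69%). The causes were not tested. Over all features, H3K4me3 calls in MEF against ES numbered 785, or 3353 with normexp, 0 with the highest probe and 2098 with scaling. H3K27me3 calls numbered 1873, or 900 and 2992 with the narrower and wider window, 1025 with the highest probe and 4919 with scaling. In iPS against MEF the H3K4me3 calls numbered 157, or 1416 with normexp and 2333 with scaling, and the H3K27me3 calls 0, or 2465 with scaling. RNA calls in MEF against ES numbered 5731, or 2387 to 9833 across the alternatives. Those in iPS against MEF numbered 6033, 36 with the scanner files as filed and 2573 to 9864 across the other alternatives. Those in iPS against ES numbered 36, or 120 with normexp, 546 at the floor and 2729 without the MEF arrays. Among 832 recomputed differences of single genes, 45 lost a call and 70 gained one, and 0 called differences reversed outside the exchanged files. The scan day as a block was not run, since no residual degrees of freedom remained.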
